A study of Homo sapiens with 4 samples.

Results

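Levels of 10 nuclear receptor genes were followed in MCF10A cells with and without overexpression of the heat shock factor HSF1. They were taken from a list by symbol and Ensembl identifier, and all 10 were found among the 63856 genes of the count table. They are the glucocorticoid receptor NR3C1, the mineralocorticoid receptor NR3C2, the oestrogen receptor ESR1, the oestrogen-related receptor ESRRA, the retinoid receptors RXRA and RARG, the vitamin D receptor VDR, the peroxisome proliferator-activated receptor PPARG, and the orphan receptors NR2F1 and NR2F2 (COUP-TFI and COUP-TFII). MCF10A is an established line of non-tumorigenic human breast epithelium. Total RNA depleted of ribosomal RNA was sequenced from 2 libraries of wild-type cells (WT) and 2 libraries of cells transduced with a lentivirus that carries the HSF1 coding sequence and selected in puromycin (HSF1-pLVX, named HSF1 in the plots). Both groups grew in DMEM/F12 medium that held EGF (20 ng/ml), insulin (5 µg/ml), cholera toxin, horse serum (5%) and hydrocortisone (0.5 µg/ml). Hydrocortisone is itself a ligand of NR3C1 and NR3C2. WT cells were neither transduced nor selected, and libraries of cells with the empty vector were not analysed here, so HSF1 overexpression, transduction and puromycin selection cannot be told apart.

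Nuclear receptors are transcription factors whose activity is set by small lipid-soluble molecules such as steroids, retinoids, vitamin D and fatty acids. Steroid receptors wait for their hormone in complexes with HSP90 and its co-chaperones and then bind DNA mostly as homodimers. VDR, the retinoic acid receptors and the PPARs instead bind DNA as heterodimers with a retinoid X receptor such as RXRA, so RXRA is a shared partner. HSF1 is the main transcriptional activator of chaperone genes under heat shock. In breast epithelium ESR1 marks a subset of luminal cells, and MCF10A is commonly classed as oestrogen receptor negative.

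The libraries held between 18688109 and 24184285 counts, and 15830 genes passed the filter on low counts. HSF1 was counted 3762 and 3515 times in the WT libraries and 24664 and 19839 times in the HSF1-pLVX libraries. Its level rose from 194.8 ± 7.94 to 990.5 ± 11.5 CPM (counts relative to the TMM-scaled library size; mean ± SD, n = 2 libraries per group). The log2 fold change of HSF1 was 2.35 (SE 0.0999, edgeR quasi-likelihood test, adjusted p = 1.14e-10). These counts do not separate the transcript of the vector from that of the endogenous gene. Calls were made at an adjusted p of 0.05 over all tested genes, and by that rule 32.7% of the tested genes were higher in HSF1-pLVX cells and 33.2% were lower. The smallest p that an exact permutation test allows with 2 against 2 libraries is 0.33, so all tests here come from the model across genes. The study's methods call the replicates biological but do not describe separate cultures, and the p-values measure the spread between these libraries. The epithelial identity also differed between the groups. Of 8 luminal markers 6 were tested and all 6 were lower (KRT8, KRT18, KRT19, EPCAM, GATA3 and FOXA1), and the summed level of the list was 5067 and 5171 CPM in WT libraries and 1032 and 835.1 CPM in HSF1-pLVX libraries. Of 7 basal markers 3 were higher (KRT5, TP63 and CDH3) and 3 were lower, KRT14 and KRT17 among them, with sums of 17827 to 18558 CPM against 10467 to 11035 CPM. Fibroblast, immune and endothelial lists summed to at most 15.0, 83.3 and 14.3 CPM in any library, and the leukocyte marker PTPRC, which has 2 rows in the deposited normalized table, was at 0 in all 4. CD14 made up nearly all of the immune sum in the HSF1-pLVX libraries. The endothelial sum was 3.04 and 1.94 CPM in WT and 13.1 and 14.3 CPM in HSF1-pLVX libraries, where most of it was KDR (mean 12.6 CPM). In the fibroblast list DCN went from 1 and 3 counts in WT to 94 and 87 in HSF1-pLVX libraries, and COL1A1 was not called. The part of these marker differences in the results on the receptors was not tested. In bulk RNA, fewer cells that express a gene and less RNA per cell cannot be told apart.

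All 10 receptors passed the filter and all 10 were called, 5 higher (ESR1, RXRA, RARG, ESRRA and NR3C1) and 5 lower (NR3C2, NR2F2, NR2F1, PPARG and VDR). Calls were common in this comparison, in which 65.9% of all tested genes were called in either direction. In each receptor the libraries of the groups did not overlap, with HSF1-pLVX above WT in 5 and below in 5. The same held for 83.1% of all tested genes, 42.1% above and 41.0% below. At 2-fold or more, ESR1 and RXRA were higher and NR3C2, NR2F2 and NR2F1 were lower, against 14.9% and 14.0% of all tested genes. The median log2 fold change was 0.05 over the receptors and 0.02 over all tested genes.

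**Figure D1:**
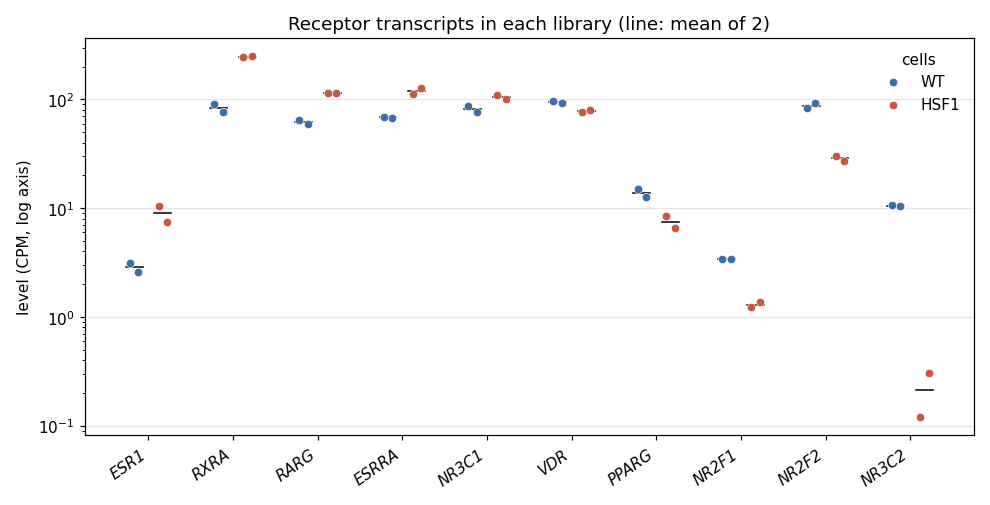
Level of each receptor in each library in CPM on a log axis, with WT and HSF1-pLVX (HSF1) libraries as separate points and the group means marked. The HSF1-pLVX libraries sit above the WT libraries for ESR1, ESRRA, NR3C1, RARG and RXRA and below them for NR3C2, VDR, PPARG, NR2F1 and NR2F2, with the widest gap for NR3C2 (10.7 and 10.4 CPM against 0.119 and 0.302 CPM).

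**Figure D2:**
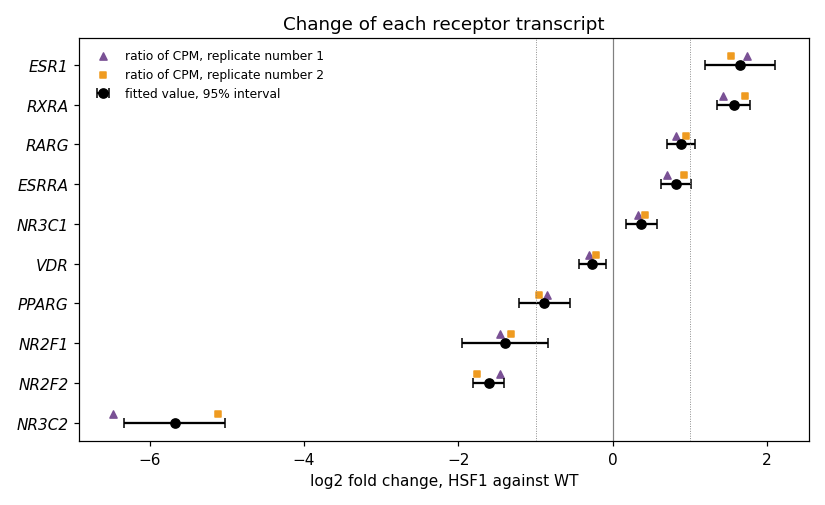
Log2 fold change of each receptor, HSF1-pLVX against WT, with its 95% interval from the edgeR fit (black), the ratios of CPM between same-numbered libraries (triangles and squares) and dotted lines at 2-fold. The intervals run from −6.33 to −5.02 for NR3C2 at the low end to 1.20 to 2.11 for ESR1 at the high end, and none includes 0. That of NR3C2 is narrower than its counting error alone allows.

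NR3C2 showed the greatest difference of the 10. This receptor binds aldosterone and cortisol with high affinity and is best known for sodium transport in kidney. It lies on chromosome 4 of hg38 from 148078762 to 148444698 on the minus strand (ENSG00000151623.14). It was counted 200 and 194 times in the WT libraries and 3 and 6 times in the HSF1-pLVX libraries, or 10.7 and 10.4 CPM against 0.119 and 0.302 CPM. Both WT libraries therefore held the transcript well above the floor of 3 counts used here. Of the HSF1-pLVX libraries, 1 was at that floor and the other just above it. The level fell from 10.5 ± 0.151 to 0.211 ± 0.129 CPM (log2 fold change −5.67, SE 0.306, 95% interval −6.33 to −5.02, edgeR adjusted p = 1.12e-09). The ratio of 394 to 9 counts, scaled to library size, was 52.7 with a 95% counting interval of 27.5 to 116.1, which covers counting error only. The interval of the fit is narrower than this counting interval, so that interval and its SE understate the error for NR3C2. The estimate rested on few counts in HSF1-pLVX cells. It was −6.38 without HSF1-pLVX replicate 2, outside the interval of the fit, and −5.09 without HSF1-pLVX replicate 1. Of all tested genes, 99.4% had a smaller absolute log2 fold change.

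NR3C1, the glucocorticoid receptor and closest relative of NR3C2, moved the other way and by far less. It lies on chromosome 5 from 143277931 to 143435512 on the minus strand (ENSG00000113580.14). The libraries held 87.4 and 76.2 CPM in WT and 109.5 and 101.9 CPM in HSF1-pLVX cells, so the groups were separate but close. The mean rose from 81.8 ± 7.93 to 105.7 ± 5.36 CPM, with a log2 fold change of 0.37 (SE 0.0920, 95% interval 0.17 to 0.57, edgeR adjusted p = 0.00270). Without HSF1-pLVX replicate 2 the rise was no longer called (adjusted p = 0.0585). Set per kb of counted exons, NR3C1 exceeded NR3C2 by 5.91 and 5.26 times in the WT libraries and by 660 and 243 times in the HSF1-pLVX libraries. The last 2 ratios rest on the 3 and 6 counts of NR3C2.

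**Figure D3:**
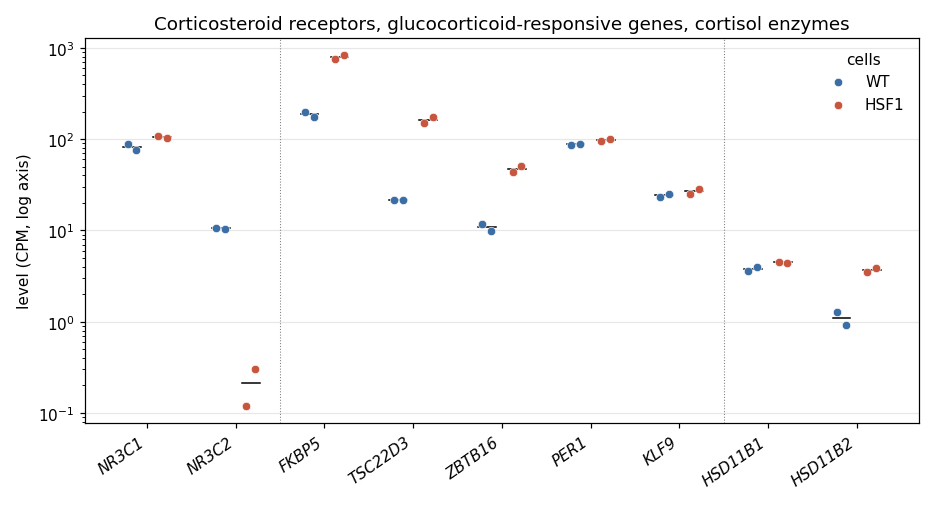
CPM per library on a log axis for the corticosteroid receptors NR3C1 and NR3C2 and the cortisol-converting enzymes HSD11B1 and HSD11B2. Also plotted are the glucocorticoid-responsive genes FKBP5, TSC22D3, ZBTB16, PER1 and KLF9. Of the 19 tested glucocorticoid receptor targets 9 were higher and 6 were lower, and none of those 6 is plotted. TSC22D3 and FKBP5 stand apart between the groups (21.8 against 161.3 CPM and 187.7 against 788.5 CPM on average), whereas PER1 and KLF9 lie close together in all 4 libraries.

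The enzymes that set how much cortisol reaches these receptors were measured as well. HSD11B2 inactivates cortisol and protects NR3C2 from it in aldosterone target cells, and its level rose from 1.10 ± 0.257 to 3.67 ± 0.290 CPM (log2 fold change 1.73, SE 0.279, edgeR adjusted p = 7.71e-05). HSD11B1, which mostly regenerates cortisol, was at 3.75 ± 0.254 and 4.49 ± 0.0787 CPM and was not called (log2 fold change 0.26, 95% interval −0.17 to 0.69, adjusted p = 0.266). Both enzymes were lowly expressed. Of 20 genes listed as glucocorticoid receptor targets 19 were tested. Of these 9 were higher, 6 were lower and 4 were not called, against 32.7% higher and 33.2% lower among all tested genes. The targets had a median log2 fold change of 0.17. Without HSF1-pLVX replicate 2 only 3 were lower. TSC22D3 (GILZ), an anti-inflammatory leucine zipper protein, was at 21.8 and 21.7 CPM in WT and 149 and 174 CPM in HSF1-pLVX libraries, a rise of 2.89 on the log2 scale (SE 0.103, edgeR adjusted p = 2.45e-11). FKBP5, the HSP90 co-chaperone that lowers the hormone affinity of the glucocorticoid receptor, rose by 2.07 (SE 0.107, adjusted p = 7.20e-10) from 187.7 to 788.5 CPM. The transcriptional repressor ZBTB16 rose by 2.10 (SE 0.117, adjusted p = 1.50e-09) from 10.9 to 46.9 CPM. The metallothionein MT1X (log2 fold change 2.73) and the transcription factor CEBPD (2.29) completed the 3 largest rises with TSC22D3, and MT1X belongs to a family of near-identical genes whose reads counting could split. Other listed targets fell, led by the transcription factor KLF6 (−1.65), the EGF receptor inhibitor ERRFI1 (−1.31) and the monoamine oxidase MAOA (−0.92). The clock gene PER1 and the transcription factor KLF9 were not called, with log2 fold changes of 0.17 (adjusted p = 0.0933) and 0.15 (adjusted p = 0.220). Of the 19 tested targets 7 were higher and 2 were lower by 2-fold or more, against 14.9% and 14.0% of all tested genes.

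ESR1, the oestrogen receptor alpha, was the least expressed of the 10 in WT cells. The gene lies on chromosome 6 from 151656691 to 152129619 on the plus strand (ENSG00000091831.22). It was counted 59 and 48 times in WT and 263 and 148 times in HSF1-pLVX libraries, or 3.14 and 2.58 CPM against 10.5 and 7.45 CPM. Both HSF1-pLVX libraries were above both WT libraries, although they differed from each other. The mean rose from 2.86 ± 0.396 to 8.96 ± 2.14 CPM (log2 fold change 1.65, SE 0.212, 95% interval 1.20 to 2.11, edgeR adjusted p = 8.39e-06).

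HSF1 binds inverted repeats of the unit nGAAn, so the promoter windows of the receptors were searched for a pair of units on either strand, written GAANNTTC or TTCNNGAA. RefSeq windows of GRCh38.p14, from 250 bases before to 50 bases after each start, were at hand for 9 of the receptors (31 windows, none for VDR). The pair occurred in 3 of them, all at starts of ESR1, and in 13.5% of all 35116 windows. No receptor window held 3 alternating units, which 0.490% of all windows did. The 3 matches are shown because they are the only ones in the receptor windows, in 30 bases of the plus strand of GRCh38.p14 with the units in capitals. They begin 123, 195 and 59 bases before their starts, at chr6:151656538-151656567, chr6:151690321-151690350 and chr6:151805635-151805664. A match of letters is a description and not a measured binding site.
ESR1 start 1: tcagcataattTTCccGAAagcagagatga
ESR1 start 2: tgatttacctcTTCttGAAcatccatctta
ESR1 start 3: ctactggctgcTTCccGAAtccctgccatt

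Of 14 genes listed as oestrogen receptor targets, 10 were tested, of which 7 were higher, 2 were lower and 1 was not called (median log2 fold change 0.58), against 32.7% higher and 33.2% lower among all tested genes. The carbonic anhydrase CA12 was at 12.2 and 11.0 CPM in WT and 228 and 279 CPM in HSF1-pLVX libraries, a rise of 4.45 on the log2 scale (SE 0.126, edgeR adjusted p = 4.05e-12). GREB1, an oestrogen-induced coactivator of ESR1, was counted 6 and 6 times against 81 and 59 times (log2 fold change 3.25, SE 0.344, adjusted p = 1.25e-06). The transcription factor MYB rose by 4.20 (SE 0.333, adjusted p = 6.14e-08) from 0.321 to 5.96 CPM. Against these, the cyclin CCND1 fell from 1912 ± 17.8 to 222.6 ± 32.9 CPM (log2 fold change −3.10, SE 0.123, adjusted p = 6.56e-11) and the scaffold protein PDZK1 had a log2 fold change of −1.95 from 1.74 CPM. PGR, the progesterone receptor and a classical ESR1 target, was at 0 in all 4 libraries and so was not detectable at this depth (floor of 3 counts per library).

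ESRRA, an orphan relative of ESR1 that drives mitochondrial and oxidative genes together with PGC-1 coactivators, had the highest level per length of the 10 in both groups. Its locus is on chromosome 11 from 64305572 to 64316743 on the plus strand (ENSG00000173153.13). The libraries held 68.7 and 67.8 CPM in WT and 112.2 and 128.3 CPM in HSF1-pLVX cells. The mean rose from 68.3 ± 0.641 to 120.2 ± 11.4 CPM (log2 fold change 0.82, SE 0.0908, 95% interval 0.62 to 1.01, edgeR adjusted p = 2.05e-06). Of the exon bases of ESRRA, 284 (9.37%) overlap TRMT112 on the opposite strand, which rose by 0.48 on the log2 scale, and whether counting used strand is not given in the sources used here.

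The PGC-1 coactivators themselves were higher. PPARGC1B was at 1.76 and 2.58 CPM in WT and 13.6 and 14.3 CPM in HSF1-pLVX libraries (log2 fold change 2.68, SE 0.184, edgeR adjusted p = 1.36e-08). PPARGC1A was counted only 0 and 5 times against 16 and 29 times (log2 fold change 2.87, SE 0.723, adjusted p = 0.00296), and without HSF1-pLVX replicate 2 it was not called (adjusted p = 0.172). NRIP1 (RIP140), a corepressor that binds ligand-activated receptors and is also listed as an oestrogen target, rose from 51.6 ± 2.35 to 129.3 ± 18.3 CPM (log2 fold change 1.33, SE 0.103, adjusted p = 4.76e-08). Over the 20 listed coactivators and corepressors, all tested, 6 were higher, 6 were lower and 8 were not called. Over all tested genes 32.7% were higher and 33.2% lower. Fewer of the 20 were called in either direction without HSF1-pLVX replicate 2. The steroid receptor coactivator NCOA1 (−0.80), the mediator subunit MED1 (−0.47) and ZFPM2 (FOG2, −1.19), a partner of GATA factors and NR2F2, were the 3 largest falls. ZFPM2 was near the threshold (adjusted p = 0.0387) and lost its call under most alternatives, to an adjusted p of 0.270 by the DESeq2 Wald test. The corepressor NCOR1 and the acetyltransferases CREBBP and EP300 were not called, with log2 fold changes from −0.20 to −0.04. CREBBP and EP300 lay just outside the threshold (edgeR adjusted p = 0.0501 and 0.0523), and NCOR1 far from it (0.714).

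RXRA, the shared heterodimer partner, was the most changed of the well expressed receptors that were higher. Its locus is on chromosome 9 from 134317098 to 134440585 on the plus strand (ENSG00000186350.9). The libraries held 90.7 and 76.6 CPM in WT and 244.3 and 251.5 CPM in HSF1-pLVX cells, with each group tight against the gap between them. The mean rose 2.96-fold from 83.6 ± 9.96 to 247.9 ± 5.15 CPM (log2 fold change 1.57, SE 0.0991, 95% interval 1.35 to 1.78, edgeR adjusted p = 5.59e-09). RXRA made up 9.38% and 8.26% of the summed level per length of the 10 receptors in WT and 19.6% and 19.4% in HSF1-pLVX libraries. Its level per kb against that of VDR was 0.496 and 0.430 in WT and 1.66 and 1.64 in HSF1-pLVX libraries. Of the other retinoid X receptors, RXRG had no counts in any library. RXRB had 1 count in all, but it has 6 rows in the deposited normalized table, and whether reads that fit several copies of a gene were counted is not given in the sources used here. A low level of RXRB and a loss of such reads cannot be told apart.

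RARG, the retinoic acid receptor that prevails in squamous and basal epithelia, rose as well. The gene is on chromosome 12 from 53210567 to 53232980 on the minus strand (ENSG00000172819.16). The libraries held 64.5 and 59.0 CPM in WT and 114.2 and 113.8 CPM in HSF1-pLVX cells, and the last 2 lay very close. The mean went from 61.7 ± 3.87 to 114.0 ± 0.302 CPM (log2 fold change 0.89, SE 0.0857, 95% interval 0.70 to 1.07, edgeR adjusted p = 4.83e-07). The ratio of RXRA to RARG per kb was 0.667 and 0.616 in WT and 1.01 and 1.05 in HSF1-pLVX libraries. The other retinoic acid receptors RARA and RARB were tested and not called (log2 fold changes 0.17 and −0.38).

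VDR, the receptor of active vitamin D, showed the smallest difference of the 10. It sits on chromosome 12 from 47841537 to 47943048 on the minus strand (ENSG00000111424.10). Levels were 96.0 and 93.5 CPM in WT and 77.3 and 80.5 CPM in HSF1-pLVX libraries, which were below both WT libraries. The mean fell from 94.8 ± 1.74 to 78.9 ± 2.27 CPM (log2 fold change −0.27, SE 0.0823, 95% interval −0.44 to −0.088, edgeR adjusted p = 0.0111). The call was lost without WT replicate 1 (adjusted p = 0.0611), without HSF1-pLVX replicate 1 (0.0900) and without HSF1-pLVX replicate 2 (0.0736).

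**Figure D4:**
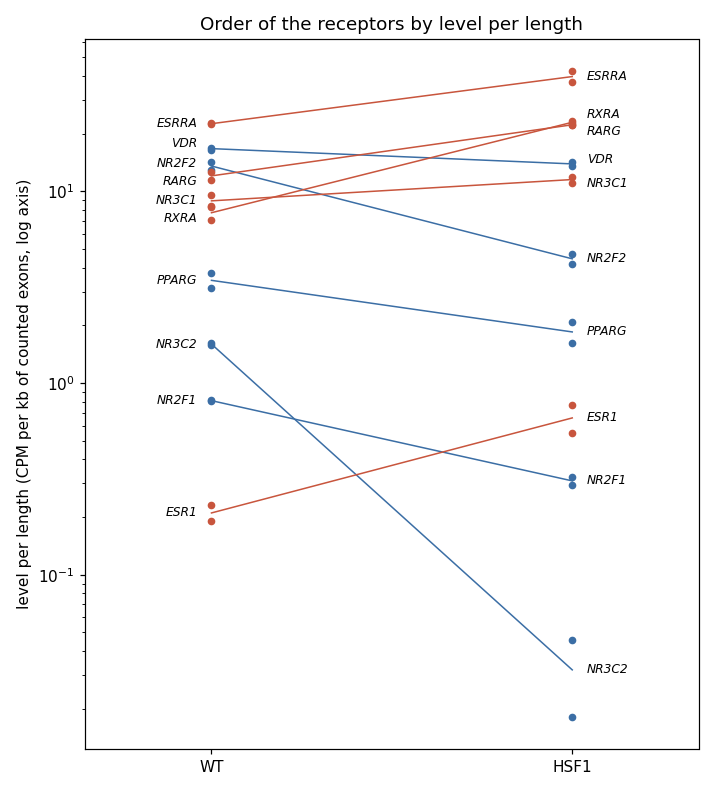
Level of each receptor per kb of counted exons on a log axis, with a line from the WT mean to the HSF1-pLVX (HSF1) mean and a point for each library; red lines rise and blue lines fall. RXRA goes from rank 6 (7.73 CPM per kb) to rank 2 (22.9 CPM per kb), NR2F2 from rank 3 to rank 6, and NR3C2 from rank 8 to rank 10.

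Levels of different receptors can be set against each other only per length, as CPM per kb of all counted exons. In WT cells the order was ESRRA (22.5 CPM per kb), VDR (16.7), NR2F2 (13.5), RARG (12.0), NR3C1 (8.92), RXRA (7.73), PPARG (3.43), NR3C2 (1.60), NR2F1 (0.809) and ESR1 (0.210). Each WT library gave this order by itself. Only for NR3C1 and RXRA did the ranges over the WT libraries overlap (8.31 to 9.53 against 7.08 to 8.38 CPM per kb). In HSF1-pLVX cells the order was ESRRA (39.7), RXRA (22.9), RARG (22.2), VDR (13.9), NR3C1 (11.5), NR2F2 (4.45), PPARG (1.85), ESR1 (0.658), NR2F1 (0.309) and NR3C2 (0.0319). RXRA and RARG were nearly level there. ESRRA stood above 87.9% of tested genes per length in WT and 94.1% in HSF1-pLVX cells, whereas NR3C2 went from above 35.7% to above 1.11%.

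Genes that make, carry and clear the ligands of RARG and VDR were called in both directions. Of 22 listed genes of vitamin A and D handling 15 were tested, of which 8 were higher, 5 were lower and 2 were not called, with a median log2 fold change of 0.96. Leaving out HSF1-pLVX replicate 2 left 3 lower. Over all tested genes 32.7% were higher and 33.2% lower. By 2-fold or more, 7 of the 15 were higher and 2 were lower, against 14.9% and 14.0% of all tested genes. The retinol dehydrogenase family member DHRS9 (log2 fold change 2.57, SE 0.348, edgeR adjusted p = 1.46e-05), the retinoic acid hydroxylase CYP26B1 (2.16, SE 0.197, adjusted p = 2.59e-07) and the retinol transporter STRA6 (1.89, SE 0.125, adjusted p = 8.64e-09) had the 3 largest rises. CYP26B1 was at 1.86 and 1.94 CPM in WT and 8.36 and 8.66 CPM in HSF1-pLVX libraries, and its relative CYP26A1 had 1 and 2 counts against 6 and 4 and was not tested. ALDH1A3, which makes retinoic acid, fell from 660.5 ± 4.71 to 211.9 ± 18.3 CPM (log2 fold change −1.64, SE 0.0994, adjusted p = 3.66e-09). The retinol saturase RETSAT was also lower (−0.54). CYP24A1, which inactivates vitamin D and is a classical VDR target, was low at 1.39 ± 0.616 and 3.41 ± 0.476 CPM (log2 fold change 1.29, SE 0.304, adjusted p = 0.00180), and it was not called without HSF1-pLVX replicate 2 (adjusted p = 0.0518).

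Of 14 listed retinoid and vitamin D receptor targets 12 were tested, of which 5 were higher, 5 were lower and 2 were not called. Over all tested genes 32.7% were higher and 33.2% lower. Fewer of these targets were called lower without HSF1-pLVX replicate 2. The list shares genes such as CYP24A1, CYP26B1, DHRS3, STRA6 and CRABP2 with that of vitamin A and D handling. CD14, a co-receptor for bacterial lipopolysaccharide, was at 1.17 and 0.538 CPM in WT and 58.6 and 83.2 CPM in HSF1-pLVX libraries, a rise of 6.36 on the log2 scale (SE 0.243, edgeR adjusted p = 4.54e-11). CD14 also stands in the list of immune markers, where PTPRC was at 0. The transglutaminase TGM2 fell from 380.0 ± 40.8 to 44.03 ± 11.3 CPM (log2 fold change −3.10, SE 0.146, adjusted p = 3.00e-10). The calcium channel TRPV6 had a log2 fold change of −0.92 (adjusted p = 0.0295) at under 2 CPM and has 2 rows in the deposited normalized table, and the DESeq2 Wald test did not call it (adjusted p = 0.139).

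PPARG, the receptor of fatty acids known for adipocyte differentiation, fell. The gene is on chromosome 3 from 12287368 to 12434356 on the plus strand (ENSG00000132170.19). It was at 15.1 and 12.6 CPM in WT and 8.40 and 6.54 CPM in HSF1-pLVX libraries, without overlap. The mean went from 13.9 ± 1.75 to 7.47 ± 1.32 CPM (log2 fold change −0.88, SE 0.153, 95% interval −1.21 to −0.56, edgeR adjusted p = 1.46e-04). Both of its relatives were lower too. PPARD, the broadly expressed PPAR, was at 129.9 and 128.3 CPM against 43.2 and 38.9 CPM (log2 fold change −1.65, SE 0.0883, adjusted p = 1.04e-09), and PPARA had a log2 fold change of −0.73.

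Of 14 listed PPAR targets only 8 were tested, of which 3 were higher, 4 were lower and 1 was not called (median log2 fold change −0.09). Over all tested genes 32.7% were higher and 33.2% lower. The largest fall among the genes named here was that of CPT1A, the rate-limiting carnitine transferase of mitochondrial fatty acid oxidation (153 and 165 against 49.7 and 47.6 CPM; log2 fold change −1.71, SE 0.0884, edgeR adjusted p = 7.43e-10), and ACAA2, a thiolase of the same pathway, was also lower (−0.55). The rises were in the pyruvate dehydrogenase kinase PDK4 (1.03), the lipase inhibitor ANGPTL4 (0.77) and HADHA (0.27), and PDK4 and ANGPTL4 are also on the list of glucocorticoid receptor targets. PDK4 and HADHA were not called without HSF1-pLVX replicate 2 (adjusted p = 0.102 and 0.235), which left 1 gene of the list higher.

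NR2F2 and NR2F1 are orphan receptors that mostly repress transcription and compete with RXR heterodimers for their DNA sites. NR2F2 lies on chromosome 15 from 96325938 to 96340263 on the plus strand (ENSG00000185551.14). It was at 83.2 and 91.9 CPM in WT and 30.4 and 27.1 CPM in HSF1-pLVX libraries. The mean fell from 87.5 ± 6.16 to 28.7 ± 2.31 CPM (log2 fold change −1.60, SE 0.0939, 95% interval −1.81 to −1.40, edgeR adjusted p = 2.52e-09), and its share of the summed level per length of the 10 receptors went from 14.4% and 16.6% to 4.08% and 3.50%. NR2F1 was far lower, with 64 and 63 counts in WT and 31 and 27 counts in HSF1-pLVX libraries. NR2F1 lies on chromosome 5 from 93583337 to 93594615 on the plus strand (ENSG00000175745.11). Its level fell from 3.40 ± 0.0132 to 1.30 ± 0.0879 CPM (log2 fold change −1.39, SE 0.259, 95% interval −1.95 to −0.84, edgeR adjusted p = 2.78e-04). NR2F1 shares 158 exon bases (3.76%) with NR2F1-AS1 on the opposite strand, whose 65 and 56 counts in WT against 24 and 14 in HSF1-pLVX libraries also fell (log2 fold change −1.94, SE 0.290, adjusted p = 3.85e-05). Per kb, NR2F2 exceeded NR2F1 by 13.0 to 17.6 times over the 4 libraries. The related NR2F6 had a log2 fold change of −0.31 and was called lower.

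Of the other 38 nuclear receptor genes 17 were tested, of which 5 were higher, 6 were lower and 6 were not called. Fewer of them were called lower without HSF1-pLVX replicate 2. Over all tested genes 32.7% were higher and 33.2% lower. At 2-fold or more, 2 of the 17 were higher and 2 were lower, against 14.9% and 14.0% of all tested genes. By 2-fold or more, NR1H3 (LXR alpha), an oxysterol receptor, rose from 6.48 ± 0.198 to 21.0 ± 1.60 CPM (log2 fold change 1.69, SE 0.128, edgeR adjusted p = 3.68e-08). NR6A1, an orphan receptor of germ cells and early embryos, rose from 1.50 to 4.42 CPM (log2 fold change 1.55, SE 0.249, adjusted p = 7.34e-05). RORA, an activator in the circadian clock, fell from 2.87 to 0.711 CPM (log2 fold change −2.0, SE 0.297, adjusted p = 3.60e-05), and the fourth was PPARD. The oestrogen receptor beta ESR2 had 4 and 9 counts in WT and 8 and 15 in HSF1-pLVX libraries and was not tested.

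The HSP90 machinery that holds steroid receptors ready for hormone was well expressed. Of its 12 listed genes 8 were higher, 3 were lower and 1, HSPA8, was not called, with a median log2 fold change of 0.34, where 32.7% of all tested genes were higher and 33.2% lower. Without HSF1-pLVX replicate 2 there were 5 higher. Apart from FKBP5 all the differences were under 2-fold. HSP90AB1, the constitutive HSP90, rose from 1221 ± 100.1 to 1981 ± 44.3 CPM (log2 fold change 0.70, SE 0.108, edgeR adjusted p = 5.20e-05), while HSP90AA1, the inducible form, fell from 1439 ± 99.5 to 915.0 ± 30.1 CPM (−0.65, SE 0.104, adjusted p = 6.97e-05). The HSP90 ATPase activator AHSA1 rose by 0.65. BAG1 (−0.63) and the HSP40 DNAJB1 (−0.34) fell, and DNAJB1 was not called without HSF1-pLVX replicate 2 (adjusted p = 0.0734).

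The listed enzymes that make or inactivate steroids, with HSD11B1 and HSD11B2 among them, included genes with large differences in both directions. Of 22 listed genes 19 were tested, of which 7 were higher, 4 were lower and 8 were not called (median log2 fold change 0.09). Over all tested genes 32.7% were higher and 33.2% lower. Fewer of the enzymes were called higher without HSF1-pLVX replicate 2. SULT1E1, the sulfotransferase that inactivates oestrogens, was at 0.479 and 0.323 CPM in WT and 14.6 and 17.7 CPM in HSF1-pLVX libraries (log2 fold change 5.30, SE 0.245, edgeR adjusted p = 2.60e-10). HSD3B1, which turns pregnenolone and other delta-5 steroids into their delta-4 ketones, was counted 47 and 40 times in WT and 0 and 0 times in HSF1-pLVX libraries, and so was at least 17.2-fold lower against a floor of 3 counts per library (adjusted p = 3.54e-07). The cholesterol sulfotransferase SULT2B1 fell from 7.31 to 0.769 CPM (log2 fold change −3.19, SE 0.275, adjusted p = 1.45e-07). HSD3B7, which acts in bile acid synthesis, had a log2 fold change of −2.0, and the polyprenol reductase SRD5A3 rose by 1.14.

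**Figure D5:**
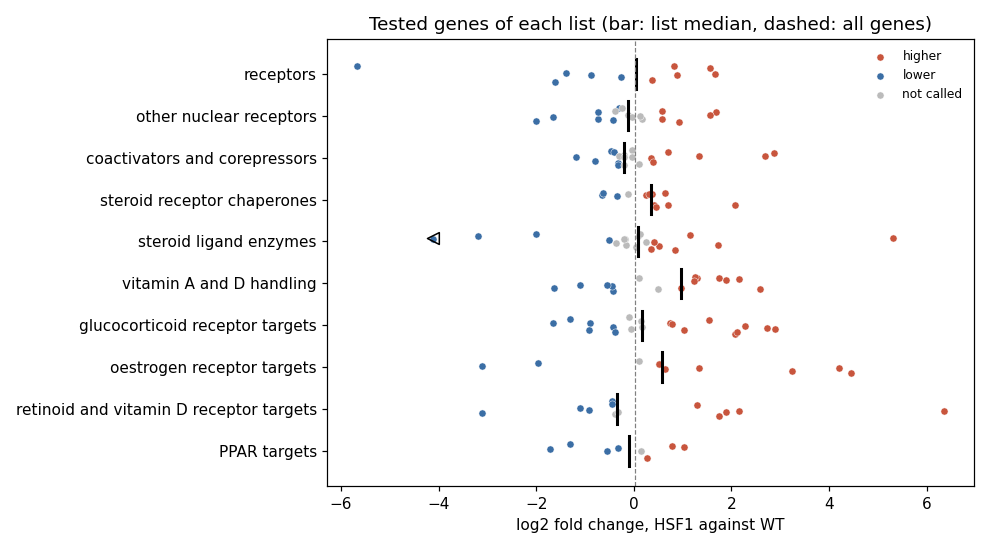
Log2 fold change, HSF1-pLVX against WT, of each tested gene in the lists (red: called higher, blue: called lower, grey: not called), with a bar at each list's median and a dashed line at the median of all tested genes. The receptor medians lie near 0 (0.05), vitamin A and D handling at 0.96 and retinoid and vitamin D receptor targets at −0.35; the triangle marks HSD3B1 at its bound.

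The study's methods used ratios over 2 or under 0.5 in both replicates as limits, without saying which libraries were set against each other. Here these limits were applied to ratios of the deposited normalized values between same-numbered libraries. By that rule ESR1 (ratios 2.79 and 2.43) and RXRA (2.59 and 3.24) were up, and NR3C2 (0.0613 and 0.0858) and NR2F2 (0.360 and 0.299) were down. Of all 22321 rows of that table, 5.00% were up and 6.42% were down. NR2F1 lay just outside the rule, with ratios of 0.462 and 0.504, and PPARG next to it at 0.561 and 0.543. On CPM the ratios of NR2F1 were 0.362 and 0.401, inside the rule. For NR3C2 the ratios on CPM were 0.0112 and 0.0289, smaller than on the deposited values, which do not go below 3.118 on the log2 scale.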

How the data were processed

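Per the labels and the study's methods, total RNA depleted of ribosomal RNA was sequenced as paired-end reads, aligned to hg38 with HISAT2 2.0.5 and SAMtools 1.13, counted per gene with featureCounts 1.6.5 and normalized with DESeq2 1.32.0. The authors deposited a table of raw counts per gene (GENCODE release 26 by its name) and a table of normalized values on a log2 scale, whose lowest value is 3.118 and whose exact transformation is not given in the sources used here. Strand and multi-mapping settings are likewise not given. Each library was read from the column that carries its title, and 0 columns of per-sample values were left out.

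From the counts, genes were filtered with filterByExpr, scaled by TMM and tested with edgeR 4.0.16 (glmQLFit, glmQLFTest, no replicate block) in R 4.3.3, with Benjamini-Hochberg adjustment over 15830 genes and calls at 0.05. SE is the absolute log2 fold change over the square root of F, and 95% intervals use the t distribution with the total degrees of freedom. For NR3C2, with few counts in HSF1-pLVX cells, both came out too small. CPM use TMM library sizes. Alternatives were other scalings and filters, DESeq2 1.42.0, limma-voom 3.58.1, the deposited log2 values, a replicate block and leaving out each library. Intervals on counts cover counting error only, since reads carried no molecular identifiers. Symbols came from GENCODE release 44 by identifier, which named 15535 of the tested genes and all 203 listed symbols. The fit was tested on 3 simulated draws with known changes in 200 genes and the same spread set for all genes. It called 81.3% of the changes of 1 and 96.2% of those of 2 on the log2 scale. Of the calls 3.77% were false. Far more genes were called in the real libraries, so these figures do not measure the error of the calls reported here.

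The receptors, gene lists and tests were chosen with earlier results of these data known, and they give no independent support for any pattern. Named are all 10 receptors, HSF1, other nuclear receptors called at 2-fold or more, in each other list the 3 largest called rises and falls without overlap, and a set list (FKBP5, TSC22D3, PER1, ZBTB16, KLF9, HSD11B1, HSD11B2, CYP24A1, CYP26A1, CYP26B1, PGR, ESR2, GREB1). Cell markers, close relatives of a receptor, antisense partners, and the uncalled NCOR1, CREBBP, EP300 and HSPA8 were named after their values were seen. Some genes that this rule names are not reported here.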

Additional observations from a re-analysis of the deposited data

How the results depend on the processing

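No receptor changed direction under any alternative. All 10 kept their calls with DESeq2 size factors, library size alone, no or a stricter filter on low counts, the DESeq2 Wald test, limma-voom and the replicate block. Without 1 library, log2 fold changes ranged from 0.26 to 0.49 for NR3C1 and from −0.30 to −0.23 for VDR, the only receptors that lost calls, so that 4 to 5 receptors were called higher and 4 to 5 lower. In the deposited normalized values, which do not go below 3.118, log2 differences were 1.38 for ESR1, −3.79 for NR3C2 and −1.05 for NR2F1. With a 2-fold limit added, 2358 genes (14.9% of those tested) were higher and 2218 (14.0%) lower, and of the receptors 2 were higher and 3 lower. Under that limit the higher and lower calls were 2 and 2 in other nuclear receptors, 3 and 1 in coactivators and corepressors, 1 and 0 in chaperones, and 1 and 2 in PPAR targets. It also left 3 higher and 3 lower in ligand enzymes, and 4 higher and 2 lower in oestrogen receptor targets. In vitamin A and D handling and in glucocorticoid receptor targets 7 were higher and 2 lower. In retinoid and vitamin D receptor targets 5 were higher and 2 lower. In the last list 3 were lower by library size alone and 3 by the DESeq2 Wald test; the cause was not tested. Without 1 library, lower calls ranged from 3 to 6 in other nuclear receptors, 1 to 6 in coactivators and corepressors (higher calls 3 to 6), 3 to 6 in vitamin A and D handling, 3 to 6 in glucocorticoid receptor targets and 2 to 6 in retinoid and vitamin D receptor targets, while higher calls ranged from 5 to 8 in chaperones, 4 to 7 in ligand enzymes and 1 to 3 in PPAR targets. All of the lowest counts of these lists came without HSF1-pLVX replicate 2, where 3783 genes were higher and 3846 lower. The lone library of a group is there assumed to vary like the other group, and the cause of the drop was not tested. Some list medians changed sign: without 1 library that of other nuclear receptors reached 0.09, that of ligand enzymes −0.02 and that of the receptors −0.02, and with no filter, which tests more genes, that of retinoid and vitamin D receptor targets went from −0.35 to 0.48. PER1 was called higher by library size alone (adjusted p = 0.0299).

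The libraries share only a replicate number. Deviations of same-numbered libraries from their group means correlated at 0.000143 across every tested gene and at −0.113 across the 9672 above 8 CPM, all of them genes and not independent replicates. With the replicate block 5138 genes were higher and 5171 lower, against 5175 and 5253 without it, and of the receptors 5 and 5. With the crossed pairing, chosen after seeing the data, 5429 were higher and 5487 lower. With the block, ZFPM2 was the one named gene that lost its call (adjusted p = 0.0543). Only 2 libraries a group limit the precision, and for low genes such as NR3C2 in HSF1-pLVX cells counting error does.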

Other observations

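Among the listed genes, RXRB, HSD17B8, PTPRC and TRPV6 had more than 1 row in the deposited normalized table. RXRB had 6 rows, of which 3 were at the lowest value of the table (3.118) in all 4 libraries, and its highest value was 3.996. HSD17B8 also had 6 rows, 5 of them at that value throughout, with a highest value of 3.733, and it had 0 counts in every library. PTPRC had 2 rows, both at that value throughout, while neither of the 2 rows of TRPV6 was and its highest value was 5.758. RXRB and HSD17B8 lie in the region of the major histocompatibility complex on chromosome 6. In all, 3255 rows of that table carry a symbol that occurs more than once.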
